A study of Mus musculus with 3 samples.

Results

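Transcripts of 10 transcription factors that steer T cells between effector, memory and regulatory fates were followed through 1 library of T cells from mouse melanoma. The members were chosen by name: Eomes, Tbx21, Prdm1, Zfp683, Bhlhe40, Maf, Rora, Id2, Id3 and Bach2, which are 10 of the 14811 genes in the table. All 10 had at least 1 UMI (unique molecular identifier, standing for 1 captured RNA molecule) in each of the 4 classes of cells described here.

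These factors work as opposed sets. Eomes and T-bet (Tbx21) are T-box factors that drive interferon-gamma and cytotoxic genes, while Blimp-1 (Prdm1), Hobit (Zfp683) and Bhlhe40 are tied to effector, regulatory and tissue-resident T cells. Id2 and Id3 lack a DNA-binding region and hold E proteins off their E-box sites, Id2 being known for effector CD8 T cells and Id3 for long-lived memory precursors. Bach2 represses effector genes and keeps T cells in a resting state, and Maf and RORalpha (Rora) serve helper and regulatory cells, among them those that make IL-10 or IL-17.

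The cells came from B16F10 tumors, a transplantable mouse melanoma implanted under the skin. Each recipient received transferred T cells through a tail vein 1 day after the tumor cells, either CD4 cells with the CD45.1 allele or CD8 cells with CD45.2, and the tumors of 10 mice were taken on day 11 and pooled. CD45.1 cells with CD4 or with both co-receptors, and CD45.2 cells with CD8 or with both, were sorted and hashtagged by population, and 6200 cells entered 1 droplet library of transcript 5′ ends. No untreated or tumor-free group is among the labels, and the strain, sex and age of the mice are not given in the sources used here. The authors' annotation gives each cell a Cd4 or Cd8 identity, marks some cells Tdp, and carries a hashtag number from 1 to 4 that nothing in the labels ties to a sorted population.

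The Cd4 class held 2477 cells, the Cd8 class 2681, Cd4-identity Tdp 93 and Cd8-identity Tdp 313, 5564 in all. Median depth was 3478, 4159, 4668 and 4981 UMIs per cell in that order. Both Cd4 and Cd8a were detected in each of the 406 Tdp cells and in only 8 others, so deeper cells enter the Tdp class more easily. Cells with UMIs of 2 Trbv genes, a sign of doublets, made up 38.7% of Cd4-identity Tdp and 19.2% of Cd8-identity Tdp. They were 9.29% of the Cd4 class and 12.8% of the Cd8 class. The part of doublets in the Tdp ratios was not tested beyond leaving these cells out. All cells share 1 pool, each class is 1 sample, the numbers are parts of that pool, and no test across samples exists. Levels are therefore summed UMIs scaled to the library total (CPM), ratios carry 95% intervals for counting error only, and a gene met the size rule when it differed at least 1.5-fold with an interval that left out 1. A level summed over a class cannot separate fewer positive cells from less RNA per cell.

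Cells with at least 2 UMIs of macrophage, dendritic, B cell or melanoma markers made up 11.7% of the Cd8 class, 4.56% of the Cd4 class, 7.99% of Cd8-identity Tdp and 5.38% of Cd4-identity Tdp. They are called other-type cells in what follows. The 449 that were not also NK-like were deep, with a median of 7967 UMIs, and 75.9% of them had at least 1 UMI of Cd3e, Cd3d, Cd3g, Cd2 or Lck. All 12 macrophage markers were higher in the Cd8 class than in the Cd4 class, at a summed 1117 against 501 CPM. The 6 NK markers were also higher there, at 42.5 against 11.0 CPM, and 1.86% of Cd8 class cells were NK-like by those markers against 0.484% of Cd4 class cells. For several member results on which these cells bear, values without them are given too. The genes of the other lists are given with these cells included only, and the part of these cells in their ratios was not tested.

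Between the 2 single classes the members split by lineage. In the Cd8 class relative to the Cd4 class, 3 of the 10 members were higher (Eomes, Id3 and Bach2), beside 8.21% of the 11649 genes measured. Another 5 were lower (Maf, Zfp683, Prdm1, Rora and Bhlhe40), beside 6.58% of all genes, and Tbx21 and Id2 did not meet the size rule. The median log2 ratio of the members was -0.55, against -0.012 over all genes. Each of the 8 kept its direction within all 4 hashtag numbers, and no share over all genes is given for this tally. The ratio intervals held 1 for Id3 in numbers 1 (0.926 to 2.16) and 3 (0.873 to 1.97). They also held 1 for Bach2 in numbers 3 (0.683 to 7.21) and 4 (0.924 to 5.24).

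**Figure D1:**
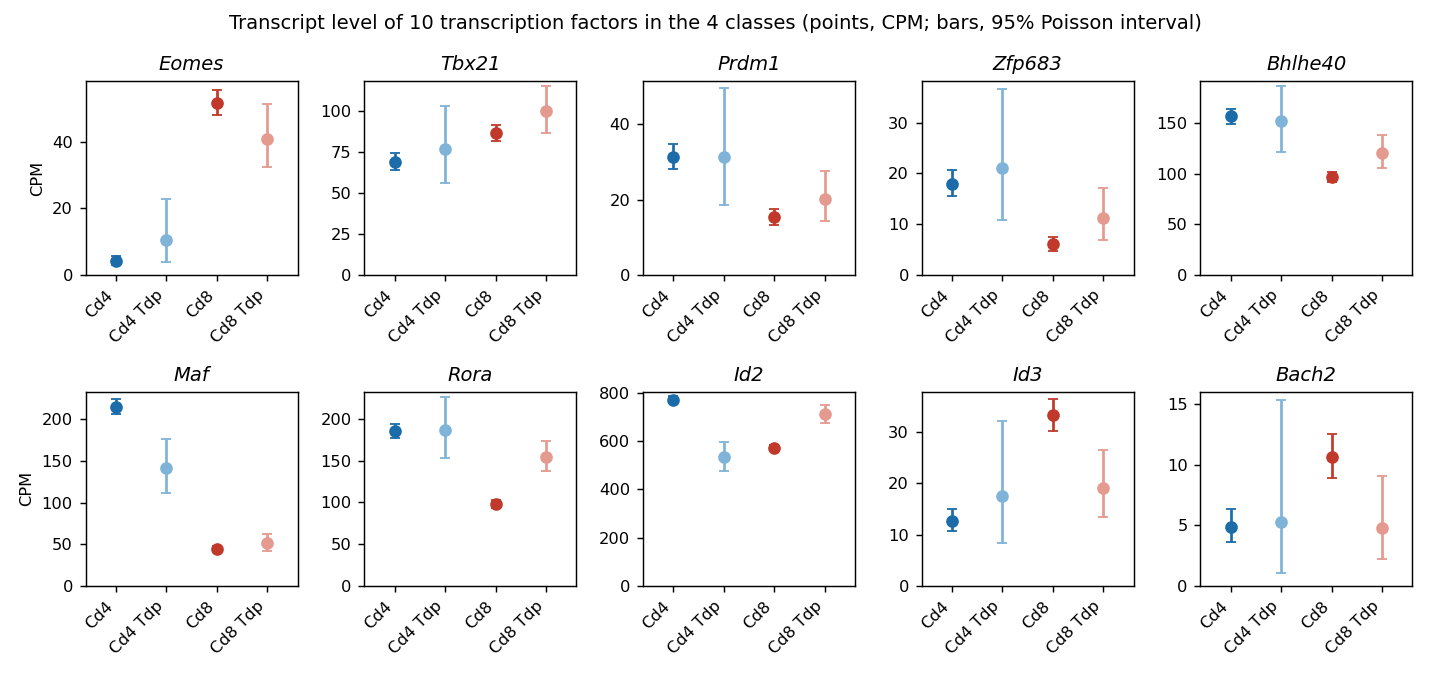
Level of each member (CPM, vertical axis, separate scale per gene) in the Cd4 class, Cd4-identity Tdp, Cd8 class and Cd8-identity Tdp, with bars for the 95% Poisson interval of the summed UMIs. Eomes stood at 51.6 CPM in the Cd8 class and 4.30 in the Cd4 class, Maf at 43.8 and 215, and Id2 at 574 and 773.

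Eomes (chr9:118478186-118486132 on GRCm38.p6, the RefSeq assembly used for all positions here), a T-box factor of cytotoxic and memory CD8 T cells and NK cells, had the widest gap of the members by fold. It reached 51.6 CPM (95% interval 47.9 to 55.6) in the Cd8 class and 4.30 CPM (3.15 to 5.73) in the Cd4 class, a 12.0-fold difference (8.90 to 16.6). Within hashtag numbers 1 to 4 the Cd8 class stood at 38.0, 56.9, 53.0 and 52.2 CPM, and the Cd4 class at 4.86, 3.47, 1.25 and 5.41 CPM. The lowest Cd8 value was thus above the highest Cd4 value. At an equal depth of 2000 UMIs per cell, an Eomes UMI was found in 8.96% of Cd8 class cells (7.87 to 10.1) and 0.624% of Cd4 class cells (0.341 to 1.04), against 17.3% and 1.29% before thinning. The share in other-type cells at that depth was 3.17%.

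Eomes also differed between the Tdp classes. Cd8-identity Tdp stood at 40.9 CPM and Cd4-identity Tdp at 10.5 CPM, a 3.91-fold difference (1.71 to 11.0) that rests on 77 and 6 UMIs. Against its own single class the ratio was 0.793 (0.619 to 1.00) in the Cd8 identity and 2.44 (0.851 to 5.72) in the Cd4 identity, the latter too imprecise to place. At equal depth an Eomes UMI was found in 0 of 89 Cd4-identity Tdp cells, which allows up to 4.06%. The 6 UMIs of Cd4-identity Tdp all lay in its 21 cycling cells, and its 72 non-cycling cells had 0, which allows up to 9.67 CPM.

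Cells were then set apart into states by a few marker UMIs, which cut a range of counts and do not define types. Eomes was highest in the 64 NK-like cells at 187 CPM (147 to 235), 2.00-fold (1.47 to 2.71) above the 315 Cd8 cells with Gzmk and without Pdcd1, at 93.4 CPM. Those were in turn 1.59-fold (1.25 to 2.01) above the Cd8 cells with Pdcd1, at 58.7 CPM, higher in 3 of 4 hashtag numbers. Naive-like Cd8 cells, which carried at least 2 UMIs of Ccr7 and Lef1 together, had 43.5 CPM (29.1 to 62.4), and their ratio to the Pdcd1 cells was 0.741 with an interval that holds 1 (0.484 to 1.09). All Cd4 states lay between 1.84 and 8.79 CPM.

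Tbx21 (chr11:97098007-97115331) encodes T-bet, the T-box partner of Eomes that defines type 1 responses. It was far more evenly spread, at 86.4 CPM (81.5 to 91.5) in the Cd8 class, 68.8 (63.9 to 73.9) in the Cd4 class, 100.0 in Cd8-identity Tdp and 76.9 in Cd4-identity Tdp. The ratio of the single classes was 1.26 (1.14 to 1.38). No 2 neighbours in the order of the 4 classes were separated by their intervals, while its ends, Cd8-identity Tdp and the Cd4 class, differed 1.45-fold (1.23 to 1.71). Among states it ran from 23.2 CPM in naive-like Cd4 cells and 33.1 in Foxp3 cells to 121 in NK-like cells. Cd4 cells with Pdcd1, at 106 CPM, equalled the 106 CPM of Cd8 cells with Pdcd1, whereas Eomes in the same pair was 7.49 against 58.7 CPM.

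Genes associated with the T-box factors did not all follow Eomes. Of 17 listed effector genes, 16 were measured, 9 were higher and 3 lower in the Cd8 class than in the Cd4 class. The highest log2 ratio was that of Ccl5, a chemokine of effector T cells, at 2.30 (7700.1 against 1563 CPM). The lowest was that of Klrg1, an inhibitory receptor of terminal effectors, at -1.39 (19.9 against 60.3 CPM). Of the 5 cytotoxic markers, 4 were higher in the Cd8 class, Prf1 most at 51.2 against 12.2 CPM. Gzmb was lower there, at 369.8 against 674 CPM.

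Prdm1 (chr10:44437174-44528558) encodes Blimp-1, a repressor that promotes terminal effector and regulatory differentiation. It was 2.04-fold lower (1.71 to 2.44) in the Cd8 class, at 15.4 CPM against 31.4 CPM in the Cd4 class. The 4 Cd8 numbers lay between 13.3 and 16.6 CPM and the 4 Cd4 numbers between 27.1 and 33.1 CPM, with no overlap. Prdm1 was highest in Foxp3 cells of the Cd4 class, at 69.9 CPM (57.6 to 83.9), and lowest in naive-like Cd8 cells, with 3 UMIs and 4.50 CPM. Outside the Foxp3 cells, Cd4 cells without Pdcd1 or naive markers had 19.6 CPM, beside 13.2 to 18.5 CPM in the Cd8 states other than naive-like.

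Zfp683 encodes Hobit, a relative of Blimp-1 known from tissue-resident lymphocytes, and RefSeq lists its locus on this assembly as a pseudogene (chr4:134051195-134058941). It was scarce, with 192 UMIs in the Cd4 class and 82 in the Cd8 class. Its level was 2.96-fold lower (2.27 to 3.88) in the Cd8 class, at 6.06 against 17.9 CPM. Across hashtag numbers the Cd8 values (4.47 to 8.07 CPM) lay below the Cd4 values, the lowest of which was 13.7 CPM. In Foxp3 cells it was low where Prdm1 was high. They had 3 Zfp683 UMIs and 1.84 CPM, against 22.1 CPM in the Cd4 cells without any of the state markers and 25.0 CPM in those with Pdcd1.

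Of 15 listed genes associated with Blimp-1 and Hobit, 2 were higher and 3 lower in the Cd8 class than in the Cd4 class. Ccr7, a lymph node homing receptor, had the highest log2 ratio, at 1.62. Itgae, an integrin of tissue-resident cells, had the lowest, at -1.09 (20.4 against 49.0 CPM). Cxcr6, a chemokine receptor of resident cells, was also lower, at 341 against 549 CPM.

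Bhlhe40 (chr6:108660629-108666925), a factor that restrains IL-10 and supports cytokine output in activated T cells, was lower in the Cd8 class, at 96.9 against 157 CPM, a ratio of 0.618 (0.575 to 0.665). Its highest state was Cd4 cells with Pdcd1, at 229 CPM (203 to 257), 1.65-fold (1.42 to 1.91) above the Cd4 cells without state markers and higher in all 4 hashtag numbers. Its lowest was naive-like Cd8 cells, at 37.5 CPM (24.3 to 55.3). Without hashtag number 3 the Cd8 to Cd4 difference no longer met the size rule, with a log2 ratio of -0.55 against -0.67 over all numbers, and the same held when each cell was given equal weight (-0.47).

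Maf (chr8:115703253-115706894), a factor of IL-10-producing, follicular and regulatory T cells and also of macrophages, was 4.92-fold lower (4.49 to 5.39) in the Cd8 class, at 43.8 CPM (40.3 to 47.4) against 215 (206 to 224). Much of the Cd8 class value came from few cells. The 356 NK-like and other-type cells were 13.3% of the class and held 20.7% of its UMIs, but 61.3% of its 592 Maf UMIs. Without them the Cd8 class stood at 21.4 CPM (18.7 to 24.3) and the Cd4 class at 209 CPM. The Maf gap was then 9.77-fold, beside 12.5-fold for Eomes. The log2 ratios, which carry a pseudocount, were -3.02 for Maf and 2.66 for Eomes. Other-type cells as a group had 181 CPM, and a Maf UMI was found at equal depth in 20.6% of them, in 31.4% of Cd4 class cells and in 4.76% of Cd8 class cells.

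No other member was concentrated in these cells to the same degree. They held 26.8% of the Bhlhe40 UMIs of the Cd8 class, 17.2% of the Eomes UMIs and 11.0% of the Rora UMIs. In the Cd4 class they were 5.05% of cells and held 14.1% of the Maf UMIs, beside 11.4% of all UMIs.

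Within the Cd4 class, Maf peaked in Foxp3 cells at 339.5 CPM (312 to 369), 1.76-fold (1.57 to 1.96) above the Cd4 cells without state markers, and higher in all 4 numbers. The other Cd4 states lay between 149.9 and 208 CPM. Among Cd8 states Maf had 0 UMIs in the 144 naive-like cells, which allows up to 5.53 CPM, and was highest in Gzmk cells at 30.3 CPM (21.2 to 42.0).

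Rora (chr9:68653404-69388246), which encodes the nuclear receptor RORalpha, was 1.89-fold lower (1.77 to 2.03) in the Cd8 class, at 97.9 against 185 CPM. The 4 Cd8 numbers (87.3 to 120.3 CPM) lay below the 4 Cd4 numbers (174 to 209 CPM). Naive-like Cd8 cells had 48.0 CPM, and the non-cycling Cd4 states lay close together between 196 and 224 CPM. Foxp3 cells, at 214 CPM, were within counting error of the Cd4 cells without state markers, with a ratio of 0.957 (0.843 to 1.08).

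Of 14 listed genes associated with Maf and RORalpha, 12 were measured, 11 were lower and 0 higher in the Cd8 class than in the Cd4 class. By log2 ratio the lowest was Il17re, an IL-17 receptor chain, at 0.739 against 23.0 CPM, and the highest was Il21, at 3.70 against 2.24 CPM, which did not meet the size rule. Il17a and Il23r were at 0 UMIs in the Cd8 class, with 26 and 30 UMIs in the Cd4 class.

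Id2 and Id3 were placed at opposite ends. Id2 (chr12:25093799-25096092) was found at equal depth in 57.9% of Cd8 class cells and 63.7% of Cd4 class cells. It stood at 574 CPM (561 to 586) in the Cd8 class and 773 (757 to 790.1) in the Cd4 class, 1.35-fold apart (1.31 to 1.39) and so short of the size rule. Leaving out Foxp3 cells moved the log2 ratio from -0.43 to -0.63 and past it. Id3 (chr4:136143822-136145392) stood at 33.3 CPM (30.3 to 36.5) in the Cd8 class and 12.6 (10.6 to 14.9) in the Cd4 class, 2.64-fold higher (2.17 to 3.22). Its Cd8 numbers (17.6 to 46.6 CPM) and Cd4 numbers (8.42 to 36.1 CPM) overlapped.

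The upstream sequences of this pair are shown because Id proteins are read against the E-box, the site of the E proteins they bind. Of the 10 members, 7 matched the promoter table from RefSeq (GRCm38.p6), Zfp683, Bhlhe40 and Maf being the other 3. The 250 bases before the start of each gene follow, 5′ to 3′ on the strand of the gene, with E-box matches (CANNTG, which reads the same on both strands) in capitals. Id2 lies on the minus strand (chr12:25096093-25096342) and Id3 on the plus strand (chr4:136143572-136143821).
Id2: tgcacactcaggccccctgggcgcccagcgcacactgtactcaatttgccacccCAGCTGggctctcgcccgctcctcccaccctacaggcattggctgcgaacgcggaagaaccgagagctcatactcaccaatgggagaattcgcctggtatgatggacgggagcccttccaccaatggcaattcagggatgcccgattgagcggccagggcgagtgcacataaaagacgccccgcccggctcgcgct
Id3: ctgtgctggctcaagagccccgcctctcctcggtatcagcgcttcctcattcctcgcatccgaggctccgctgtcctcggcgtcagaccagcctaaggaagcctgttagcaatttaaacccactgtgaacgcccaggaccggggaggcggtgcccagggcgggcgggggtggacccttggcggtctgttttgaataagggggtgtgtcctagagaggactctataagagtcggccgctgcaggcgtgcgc

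The Id2 window held 1 match, CAGCTG, beginning 196 bases before the start, and the Id3 window held 0. Both windows were 62.8% G and C. A match was present in 66.2% of the 32851 promoters of the table in a window of this length, so its presence or absence sets neither gene apart. Of the E protein genes themselves, Tcf3 stood at 85.8 CPM in the Cd8 class and 73.2 in the Cd4 class, and Tcf12 at 36.6 and 31.5. Tcf4 alone met the size rule, at 13.2 against 8.13 CPM. Id1, the other Id gene of the list, had 16 and 12 UMIs.

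In naive-like Cd8 cells Id2 was lowest of all states at 220.4 CPM (186 to 259), while Id3 was highest at 73.5 CPM (54.3 to 97.1). Relative to Cd8 cells with Pdcd1, Id2 was 2.87-fold lower (2.43 to 3.41) and Id3 1.94-fold higher (1.37 to 2.70), each in all 3 hashtag numbers with at least 20 naive-like cells. The Cd8 cells without state markers followed for Id3 at 55.3 CPM (45.7 to 66.3), with an interval that overlaps. At equal depth an Id3 UMI was found in 7.04% of naive-like Cd8 cells (3.43 to 12.6). The share was 9.72% in those without state markers (7.25 to 12.7) and 5.64% in Pdcd1 cells (4.17 to 7.43). By share of cells Id3 was thus not highest in naive-like cells, and these intervals overlap. Bach2 had its highest level in the same cells, at 27.0 CPM (16.0 to 42.7), 2.43-fold (1.32 to 4.33) above the Pdcd1 cells and higher in 2 of 3 numbers. Bhlhe40, Maf, Rora and Prdm1 had their lowest level of the 14 states in naive-like Cd8 cells. The naive-like state was cut on Ccr7 and Lef1, neither of which is a member.

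**Figure D2:**
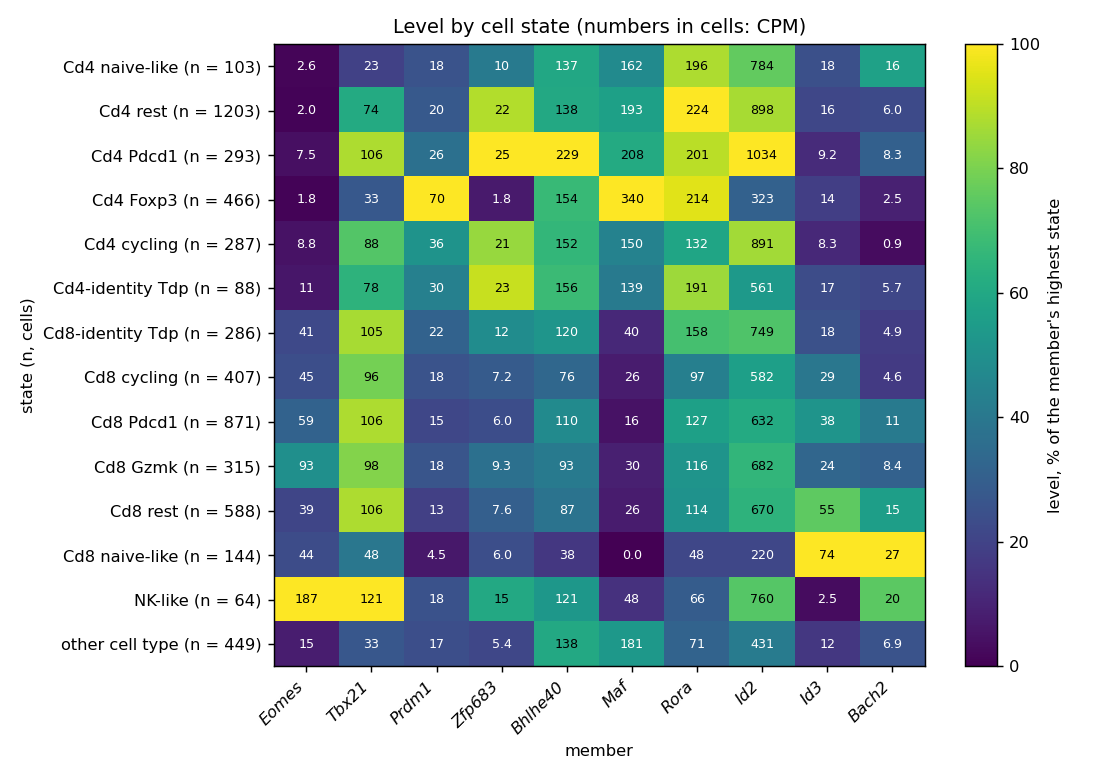
Level of each member in 14 states of cells (rows, with the number of cells), printed in CPM and coloured as a percent of the highest state of that member. Naive-like Cd8 cells combine the highest Id3 (73.5 CPM) and Bach2 (27.0) with the lowest Id2 (220.4), Maf (0), Rora (48.0) and Bhlhe40 (37.5), and Foxp3 cells combine the highest Prdm1 (69.9) and Maf (339.5) with the lowest Zfp683 (1.84).

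Id2 and Id3 were also compared cell by cell. Among non-cycling Cd8 class cells without NK or other-type markers, thinned to equal depth, an Id3 UMI was found in 4.56% of 1052 cells with Id2 (3.38 to 6.00) and in 9.28% of 711 cells without (7.25 to 11.7). A Rora UMI went the other way, in 21.9% of the cells with Id2 (19.4 to 24.5) and 15.8% of those without (13.2 to 18.6). In the Cd4 class the Id3 shares were 1.89% with Id2 (1.19 to 2.85) and 2.96% without (1.82 to 4.54), with intervals that overlap. Tbx21 there was found in 14.2% of 1165 cells with Id2 and in 6.81% of 675 cells without. Zfp683 was found in 4.21% and 1.48% of the same cells. Without Foxp3 cells the Tbx21 shares were 15.0% and 7.77%, again with separate intervals, while the Zfp683 shares of 4.76% (3.54 to 6.25) and 2.43% (1.17 to 4.42) had intervals that overlap. An Id3 UMI was found in 0.503% of 596 Cd4 cells with Maf (0.104 to 1.46) and in 3.14% of 1244 without (2.24 to 4.26). In Foxp3 cells alone the same shares were 0 of 177, which allows up to 2.06% by the exact binomial interval, and 11 of 222. Outside the Foxp3 cells the Id3 shares were 0.716% with Maf and 2.74% without, with intervals that overlap. These cells share 1 library, and the shares carry counting error only.

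Bach2 (chr4:32238413-32586109) was 2.18-fold higher (1.57 to 3.05) in the Cd8 class, at 10.6 CPM (8.91 to 12.5) against 4.86 (3.63 to 6.37). It had 143 and 52 UMIs in these classes, so its ratios are imprecise. The Cd8 numbers (9.37 to 12.5 CPM) and the Cd4 numbers (4.67 to 5.21 CPM) did not overlap.

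Among the 59 other T cell transcription factors listed, 9 were higher and 12 lower in the Cd8 class than in the Cd4 class. Nr4a2, an early factor of receptor stimulation, had the highest log2 ratio, at 37.9 against 12.2 CPM, followed by Tox, an exhaustion factor, at 91.6 against 43.7 and Irf8 at 87.8 against 45.8. Foxp3, the factor of regulatory T cells, had the lowest at 11.8 against 156 CPM, then Ikzf2 at 61.8 against 220 and Zbtb7b, the CD4 lineage factor, at 15.3 against 51.0.

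In Cd8-identity Tdp cells relative to the Cd8 class, Rora and Zfp683 were higher and Id3 and Bach2 lower. These are 2 members in each direction, beside 2.07% of the 11043 genes measured that were higher and 4.60% that were lower. Rora stood at 154 CPM (137 to 173) against 97.9, 1.58-fold higher (1.38 to 1.79), and was higher in all 4 numbers, by 2.15, 1.58, 1.73 and 1.15-fold. Leaving out NK-like and other-type cells moved its log2 ratio from 0.63 to 0.51, which fell short of the size rule. So did leaving out number 1 (0.55) or number 3 (0.56), thinning to equal depth (0.53) and giving each cell equal weight (0.44).

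Id3 was 1.74-fold lower (1.24 to 2.51) in these Tdp cells, at 19.1 CPM, and Bach2 2.21-fold lower (1.13 to 4.93), at 4.79 CPM from 9 UMIs. Both were lower in 3 of 4 numbers. The Id3 difference came largely from number 3, where Tdp cells had 6.89 CPM and Cd8 class cells 46.6, and without that number the log2 ratio went from -0.66 to -0.25 and off the size rule. Ccr7, of the naive list, was also lower in these cells, and the list as a whole is not described here. Tcf7 and Lef1 of that list were not among the 3 transcription factors with the lowest ratios. Those were Nr4a1, Zeb2 and Bcl3. The Bach2 difference was off the size rule without number 1 (-0.55), number 2 (-0.57) or number 4 (-0.68) and after thinning (-0.50), against -0.67 over all cells.

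Zfp683 was 1.84-fold higher (1.08 to 3.00) in the Cd8-identity Tdp cells, at 11.2 against 6.06 CPM, from 21 UMIs. Its UMIs were uneven, since 57.1% of them lay in 5 cells. The 74 cycling Tdp cells had 25.2 CPM (14.7 to 40.4) and the 239 non-cycling ones 3.32 CPM (0.903 to 8.49), and without cycling cells on either side the log2 ratio turned from 0.55 to -0.42. It was also off the size rule when thinned to equal depth (0.23), with equal weight per cell (0.22) and without number 2 (0.20) or number 3 (0.48).

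Maf in Cd8-identity Tdp cells read differently with and without the other-type cells. With all cells it stood at 51.0 against 43.8 CPM in the Cd8 class, a ratio of 1.17 (0.930 to 1.45). Without NK-like and other-type cells it was 39.5 against 21.4 CPM, and the log2 ratio went from 0.20 to 0.76 and met the size rule. The 12 macrophage markers, each below its Cd8 class level in these Tdp cells, summed to 382 against 1117 CPM. Set against Cd8 cells with Pdcd1 only, the Tdp cells were 2.40-fold higher in Maf (1.66 to 3.45) and higher in all 4 numbers.

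In Cd4-identity Tdp cells relative to the Cd4 class, Maf alone met the size rule and was lower, beside 2.92% of the 10606 genes measured. None of the 10 was higher, beside 2.20% of all genes. Maf stood at 142 CPM (112 to 176) against 215, 1.52-fold lower (1.22 to 1.92), in all 3 numbers with at least 20 Tdp cells. It was off the size rule without NK-like and other-type cells (log2 ratio -0.57), without cells carrying 2 Trbv genes, a sign of doublets (-0.44), and without number 3 (-0.56) or number 4 (-0.50). The main log2 ratio was -0.59. With 93 cells and 3 to 305 UMIs per member, most members could not be resolved here.

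The Id2 ratio lay on opposite sides of 1 in the 2 Tdp classes, short of the size rule in each when all cells were kept. It was 1.24-fold higher (1.17 to 1.32) in Cd8-identity Tdp than in the Cd8 class, at 712 against 574 CPM, and higher in all 4 numbers. It was 1.45-fold lower (1.29 to 1.63) in Cd4-identity Tdp than in the Cd4 class, at 533 against 773 CPM, and lower in all 3 numbers. This second difference met the size rule without cells carrying 2 Trbv genes (log2 ratio -0.62) and without number 4 (-0.60), against -0.53 over all cells.

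**Figure D3:**
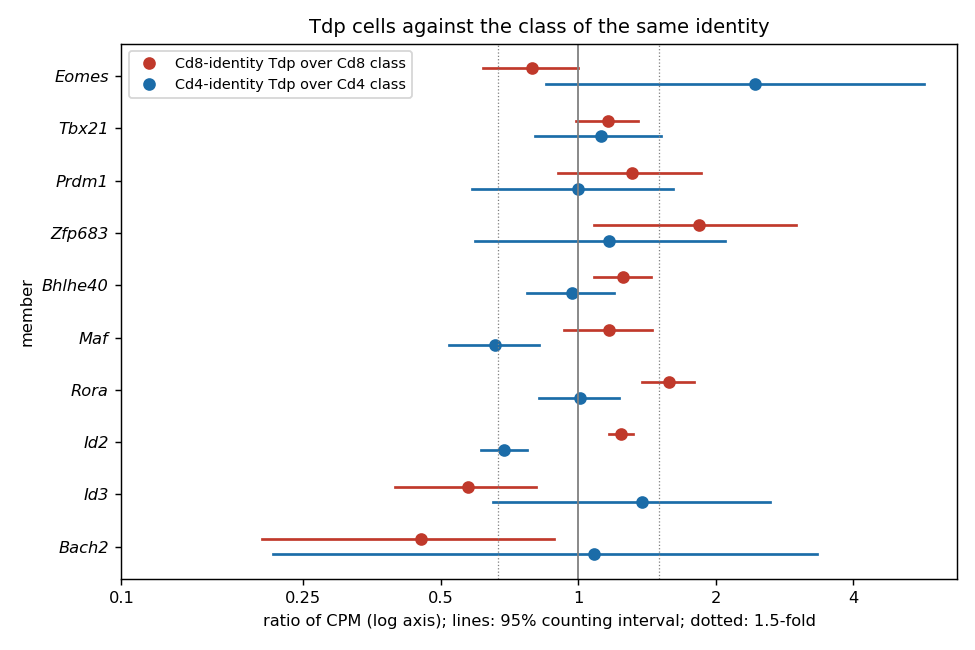
Ratio of CPM (horizontal log axis) for each member in Cd8-identity Tdp over the Cd8 class (red) and Cd4-identity Tdp over the Cd4 class (blue), with 95% counting intervals and dotted lines at 1.5-fold. Rora lies at 1.58 in the Cd8 identity and 1.01 in the Cd4 identity, and Id2 lies at 1.24 and 0.689, on either side of 1.

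Between the Tdp classes, Eomes was higher and Maf 2.77-fold lower (2.04 to 3.77) in the Cd8 identity, at 51.0 against 142 CPM. These are 1 member in each direction, beside 3.96% of the 8122 genes measured that were higher and 3.09% that were lower. Rora, Zfp683, Prdm1, Bhlhe40 and Id3, which separated the single classes, had intervals that hold 1 between the Tdp classes. Their ratios were 0.825 for Rora (0.659 to 1.04), 0.533 for Zfp683, 0.642 for Prdm1 (0.358 to 1.20), 0.798 for Bhlhe40 (0.620 to 1.03) and 1.10 for Id3 (0.533 to 2.48). Some of these depended on the cells included. Without cells carrying 2 Trbv genes, Prdm1 (log2 ratio -1.03, against -0.53) and Zfp683 (-1.22, against -0.68) met the size rule as lower. So did Prdm1 without cycling cells (-1.15), Zfp683 without number 3 (-0.93) and Bhlhe40 without number 4 (-0.68, against -0.31). Bach2 had too few UMIs (9 and 3) to be counted as measured.

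Among the T cell transcription factors, 2 were higher and 6 lower in Cd8-identity Tdp than in the Cd8 class. Foxp3 was the highest, at 25.5 against 11.8 CPM, and Nr4a1, an early receptor-induced factor, the lowest, at 15.4 against 32.2. In Cd4-identity Tdp, 2 were higher and 3 lower than in the Cd4 class, with Tox highest at 76.9 against 43.7 CPM and Zeb2 lowest at 8.74 against 26.5.

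Cells counted as cycling had at least 2 UMIs of Mki67, Top2a, Cdk1 and Birc5 together, and made up 17.6% of the Cd8 class and 12.8% of the Cd4 class. Bach2 was the only member lower in cycling cells of both classes by the size rule. In the Cd8 class it was the only one of the 10 to meet the size rule, beside 13.4% of the 10898 genes measured that were lower, and 0 members were higher, beside 11.2% of all genes. The members' counts are thus no larger than the background. Bach2 stood at 4.54 CPM (2.64 to 7.26) in cycling and 12.9 (10.7 to 15.3) in non-cycling cells, 2.84-fold lower (1.71 to 5.03), and was lower in all 4 numbers. In the Cd4 class it stood at 1.51 against 5.96 CPM, 3.95-fold lower (1.45 to 15.1), from 4 and 48 UMIs. That difference was off the size rule after thinning (log2 ratio -0.62) and without number 1 (-0.72), against -0.75 over all cells.

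Summed over the Cd8 class, Tbx21 and Id2 had ratios near 1 between cycling and non-cycling cells, but the numbers differed. Tbx21 stood at 87.8 and 85.8 CPM in cycling and non-cycling cells, with a ratio of 1.02 (0.898 to 1.16), and Id2 at 581 and 571 CPM, with a ratio of 1.02 (0.969 to 1.07). In number 1 cycling cells were higher in Id2, by 1.45-fold (1.29 to 1.63), and in Tbx21, by 1.49-fold (1.03 to 2.14). In number 2 the Id2 ratio was 0.831 (0.752 to 0.917), on the other side of 1. Id3 was 1.45-fold lower in cycling cells (1.15 to 1.84), at 25.1 against 36.4 CPM, just short of the size rule and past it when other-type cells were left out (log2 ratio -0.51, against -0.46 with all cells). Maf was 1.31-fold lower in cycling cells (1.08 to 1.60), and its log2 ratio turned from -0.35 to 0.31 without NK-like and other-type cells, short of the size rule both ways. Bhlhe40, with a ratio of 0.728 (0.636 to 0.831), and Rora, with 0.842 (0.740 to 0.955), were also lower in cycling cells. Each was lower in all 4 numbers and short of the size rule. Cycling cells were deeper, at a median of 7454 against 3847 UMIs, and the part of depth in these ratios was not separated beyond thinning.

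In the cycling Cd4 class, Rora and Bach2 were lower, beside 11.1% of the 10534 genes measured, and Eomes was higher, beside 12.5% of all genes. Rora stood at 122 CPM (109 to 136) against 206 (196 to 216), a ratio of 0.593 (0.525 to 0.668), and was lower in all 4 numbers. Thinned to equal depth its log2 ratio was -0.55, against -0.73, and off the size rule. Eomes stood at 7.54 against 3.23 CPM, from 20 and 26 UMIs. Of the 20, 80.0% lay in 5 cells, the direction held in 2 of 4 numbers, thinning turned the log2 ratio from 0.61 to -0.34, and without number 1 it was 0.26. Tbx21 was 1.39-fold higher (1.18 to 1.63), at 87.1 against 62.8 CPM, short of the size rule. It was higher in numbers 1 to 3, by 1.47, 1.52 and 1.43-fold, and level in number 4, at 61.4 against 61.3 CPM.

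**Figure D4:**
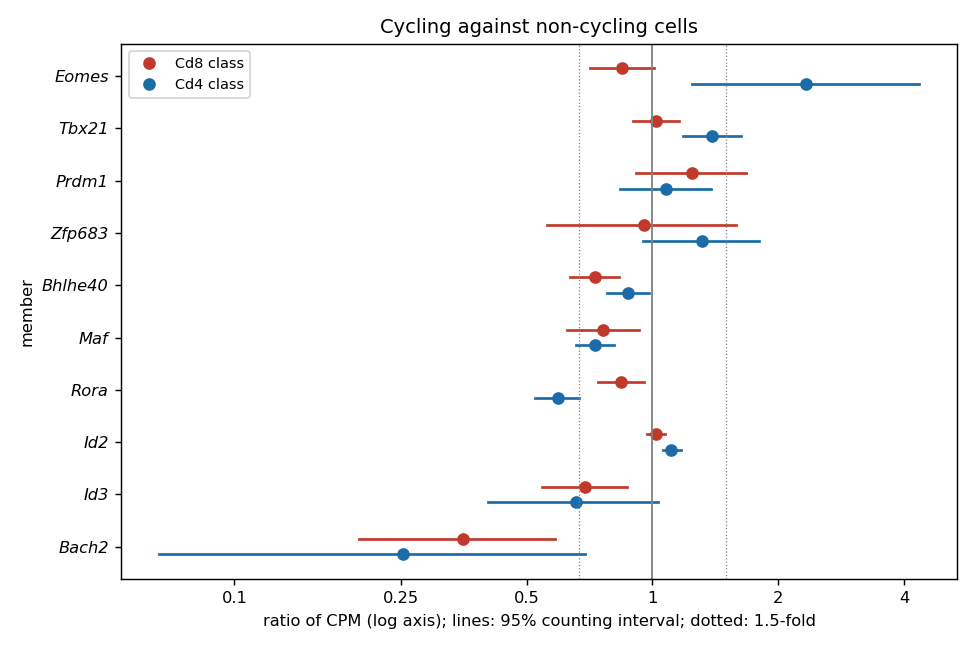
Ratio of CPM in cycling over non-cycling cells (horizontal log axis) for each member in the Cd8 class (red) and Cd4 class (blue), with 95% counting intervals and dotted lines at 1.5-fold. Bach2 lies at 0.352 and 0.253, Rora at 0.842 and 0.593, and Id2 at 1.02 and 1.11.

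Among the other T cell transcription factors, 1 was higher and 15 lower of 57 in cycling Cd8 class cells, and 3 were higher and 21 lower of 58 in cycling Cd4 class cells. Tcf7, a factor of naive and memory T cells, was lowest in the Cd8 class, at 76.1 against 203 CPM, and stood at 54.7 against 134 CPM in the Cd4 class. Klf3 was the lowest in the Cd4 class, at 24.1 against 68.6 CPM.

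Within the Cd4 class, Foxp3 cells differed from the rest in 6 of the 10 members. Against the other non-cycling Cd4 class cells, 2 members were higher, beside 9.50% of the 10015 genes measured, and 4 were lower, beside 6.61% of all genes. Prdm1 was 2.99-fold higher (2.31 to 3.86), at 62.4 against 20.9 CPM, and Maf 1.57-fold higher (1.42 to 1.73), at 318 against 203 CPM. Zfp683 was 10.2-fold lower (3.89 to 38.0), from 4 and 130 UMIs, and Id2 2.73-fold lower (2.51 to 2.97), at 325 against 887 CPM. Tbx21 was 2.37-fold lower (1.81 to 3.17) and Bach2 3.45-fold lower (1.26 to 13.2), the latter from 4 and 44 UMIs. All 6 kept their direction in all 4 numbers. The ratio intervals held 1 for Prdm1 and Tbx21 in numbers 3 and 4, and for Zfp683 in numbers 2 and 3. They held 1 for Bach2 in all 4 numbers, and its 4 UMIs in Foxp3 cells all lay in number 1. Bach2 was off the size rule after thinning (log2 ratio -0.58) and without number 2 (-0.63) or number 4 (-0.66), against -0.78 over all cells.

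Bhlhe40 and Rora did not separate the Foxp3 cells, with ratios of 1.04 (0.916 to 1.18) and 0.934 (0.830 to 1.05). Of 58 other T cell transcription factors measured, 16 were higher and 4 lower in Foxp3 cells, counting Foxp3 itself, which defined them. Ikzf2, a factor of regulatory T cells, stood at 748 against 82.6 CPM and Nr4a1 at 66.6 against 12.2. Tcf7 was the lowest, at 28.6 against 167 CPM.

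Cells with a Pdcd1 UMI, the gene of the inhibitory receptor PD-1, were compared with the other non-cycling Cd8 class cells. None of the 10 members was higher, beside 2.61% of the 10383 genes measured, and Maf alone was lower, beside 8.87% of all genes, so the members' counts are close to the background. Maf stood at 26.8 against 61.8 CPM, 2.30-fold lower (1.86 to 2.88). Without NK-like and other-type cells its log2 ratio went from -1.07 to -0.36 and off the size rule. Rora was 1.36-fold higher (1.20 to 1.55) and Tbx21 1.29-fold higher (1.12 to 1.48), each in all 4 numbers and short of the size rule. Leaving out NK-like and other-type cells lowered the log2 ratio of Rora from 0.43 to 0.28 and that of Tbx21 from 0.34 to 0.17. Of the other transcription factors, 4 were higher, led by Nr4a1, Nr4a2 and Tox, and Batf3, a factor of dendritic cells and activated T cells, had the lowest ratio, at 6.22 against 30.4 CPM.

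The hashtag numbers differed mainly in the Cd8 class. Maf there stood at 84.0, 48.2, 10.7 and 60.8 CPM in numbers 1 to 4, with all neighbours in the order of level separated by their intervals. Number 1 was 7.87-fold (5.70 to 11.0) above number 3. Macrophage markers ran in the same order of numbers, at 1947, 1151, 265 and 1797 CPM, and other-type cells made up 20.7%, 11.0%, 6.81% and 14.2% of cells. Without NK-like and other-type cells Maf stood at 53.0, 22.7, 9.80 and 21.3 CPM, and numbers 1 and 3 still differed 5.40-fold (3.62 to 8.16).

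Id3 in the Cd8 class ran the other way, at 17.6, 32.7, 46.6 and 24.4 CPM in numbers 1 to 4. Number 3 was 2.66-fold (1.87 to 3.87) above number 1, and 2.04-fold (1.41 to 3.02) without NK-like and other-type cells. Naive-like cells made up 4.91%, 4.56%, 6.81% and 4.72% of the numbers, and their part in the Id3 difference was not tested. Bach2, the other member that was high in naive-like cells, differed between its highest and lowest numbers by 1.33-fold (0.868 to 2.06).

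Rora in the Cd8 class was highest in number 4, at 120.3 CPM, and without NK-like and other-type cells number 4 stood at 149.6 CPM and number 3 at 90.4, 1.65-fold apart (1.42 to 1.93). Bhlhe40 was highest in number 1, at 129 CPM, 1.62-fold (1.38 to 1.90) above number 3. Prdm1 and Zfp683 differed between no 2 neighbouring numbers, and Id2 lay between 548 and 596 CPM. Without NK-like and other-type cells Id2 stood at 677 CPM in number 1 and 552 in number 3, 1.23-fold apart (1.13 to 1.32).

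**Figure D5:**
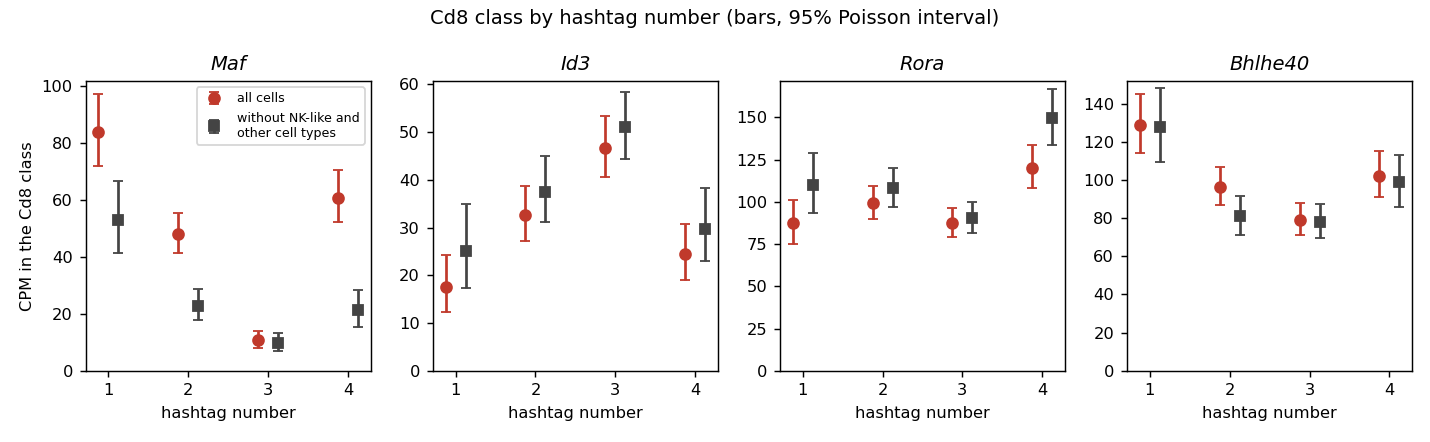
Level of Maf, Id3, Rora and Bhlhe40 in the Cd8 class (CPM, vertical axis) by hashtag number (horizontal axis), for all cells (red circles) and without NK-like and other-type cells (grey squares), with 95% Poisson intervals. Maf stands at 84.0 CPM in number 1 and at 53.0 when those cells are left out, and stands at 10.7 and 9.80 CPM in number 3, where Id3 is highest at 46.6 CPM.

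In the Cd4 class 8 of the 10 members had no separated neighbours among the numbers, and no share over all genes is given beside this count. Scarce members could hardly separate, with 1 Eomes UMI and 4 Bach2 UMIs in number 3. Id3 was the main exception among the members, at 12.3, 9.02, 36.1 and 8.42 CPM. The value of number 3 came from few cells: 1 cell held 16 of its 29 UMIs, 5 cells held 82.8%, and 4.95% of its cells had a UMI against 4.57% in number 1. Maf was lowest in number 3, at 172 CPM, against 214 to 226 CPM in the other numbers.

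Profiles were compared over 24 units, each a class in 1 hashtag number, cycling or not, with at least 20 cells, and against 8086 genes. The units share a library and differ in depth, so the values are descriptive. Eomes was most like Ifitm10 (Pearson r of log2 CPM 0.89), Tox (0.88) and Zbtb32 (0.85). Maf was most like Tnfrsf4 (0.91), Tmbim4 (0.90) and Zbtb7b (0.90), and Rora most like Cxcr6 (0.86), Shisa5 (0.83) and Cd4 (0.82). For Bhlhe40 the gene was Cept1 (0.82), for Prdm1 Med25 (0.79), for Zfp683 Fmnl3 (0.79) and for Bach2 Fem1a (0.79). For Tbx21 it was Ptprcap (0.77), for Id2 St14 (0.77) and for Id3 Gramd4 (0.71). Among the members themselves Eomes ran most opposite to Zfp683 (-0.78), Prdm1 (-0.75) and Maf (-0.74).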

How the data were processed

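The deposited table holds UMI counts per gene and cell, which the authors made from the gene expression library of the pool. Per the submitters' processing notes, mm10, Cell Ranger 3.1.0 and Seurat 3.2.3 were used, with no role given for each. The authors' deposited annotation gave the identity, the Tdp class and the number of each cell. Antibody counts and receptor chain files were not used. UMIs were summed per class or state over 14811 genes less 108 T cell receptor and immunoglobulin genes (0.324% of UMIs), and scaled to CPM. Ratios carry exact conditional binomial intervals (95%), levels exact Poisson intervals and shares Clopper-Pearson intervals, all for counting error only. A gene was measured with at least 20 UMIs over both sides, and log2 ratios used a pseudocount of 5 CPM. Fits across samples were not possible with 1 pooled library, so no p-value is given. Cells with UMIs of 2 Trbv genes stood in for doublets and no caller was run. They were 9.29% of the Cd4 class, 12.8% of the Cd8 class, 38.7% of Cd4-identity Tdp and 19.2% of Cd8-identity Tdp, and were kept unless stated.

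Each member is named. Of the other transcription factors, those named lie among the 3 at either end by log2 ratio, given at least 20 CPM, and of the other lists from the highest and lowest. Cxcr6, Il17a and Il23r were named after their values were seen. 1 gene is not reported here and was left out of the lists and of the naive-like state. The members and all lists were chosen with earlier results of these data known. The steps were tested on simulated data. Python 3.11.15, numpy 2.4.6, scipy 1.17.1, pandas 2.3.3, matplotlib 3.10.9 and edgeR 4.0.16 (trimmed mean of M values scaling, as an alternative) were used. Alternatives changed the scaling, cell weight, depth, filters, call rule, pseudocount, and the cells or numbers included.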

Additional observations from a re-analysis of the deposited data

Results flagged for a closer look

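For Eomes and Id2 the ratio of Tdp cells to their single class had opposite signs in the 2 identities, in every hashtag number with at least 20 Tdp cells, and the difference between the identities was not tested. The log2 ratio of Eomes was -0.30 in Cd8-identity Tdp over the Cd8 class, negative in 4 of 4 numbers, and 0.74 in Cd4-identity Tdp over the Cd4 class, positive in 3 of 3. The second value shows no direction. It rests on 6 UMIs in 93 cells, the 3 numbers hold 1 UMI each, number 3 with its 9 Tdp cells was left out of the tally, and the pooled ratio of 2.44 has an interval that holds 1 (0.851 to 5.72). For Id2 the log2 ratio was 0.31 in the Cd8 identity, positive in 4 of 4 numbers, and -0.53 in the Cd4 identity, negative in 3 of 3, on 1340 and 305 Tdp UMIs. The numbers are parts of 1 pool and not replicates. Cells with 2 Trbv genes, a sign of doublets, made up 38.7% of Cd4-identity Tdp and 19.2% of Cd8-identity Tdp. The part of mixed Cd4 and Cd8 cells in these opposite signs was not tested.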

How the results depend on the processing

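Of 1010 alternative values of member ratios, 926 stayed within the counting interval of the main value, 82 left it and 2 reversed. Counting each member in each comparison, 26 met the size rule, and 11 of these were lost under at least 1 alternative, 30 losses in all, against 20 gains. The 2 reversals were Zfp683 in Cd8-identity Tdp over the Cd8 class without cycling cells (log2 ratio -0.42) and Eomes in the cycling Cd4 class after thinning (-0.34). Scaling by trimmed mean of M values shifted log2 ratios by -0.053 to 0.053 and changed no count of members by over 1.5 times. In the Cd8 over the Cd4 class, the count lower was 3 at 2-fold. In Cd8-identity Tdp over the Cd8 class, the count higher was 0 with equal weight per cell, after thinning and at 2-fold, 1 without cycling cells, and 0 to 2 leaving out each number, and the count lower was 1 after thinning, at 2-fold and leaving out each number. In Cd4-identity Tdp over the Cd4 class, the count higher was 1 by 1.5-fold alone and without cells with 2 Trbv genes, and the count lower was 0 at 2-fold and without NK-like and other-type cells, and 0 to 1 leaving out each number. Between the Tdp classes, the count higher was 0 with at least 100 UMIs per gene and 2 without cycling cells, and the count lower was 3 by 1.5-fold alone and without cells with 2 Trbv genes, 2 without cycling cells, and 1 to 2 leaving out each number. In the cycling Cd8 class, the count higher was 1 after thinning, and the count lower was 2 without NK-like and other-type cells and without cells with 2 Trbv genes, and 1 to 2 leaving out each number. In the cycling Cd4 class, the count higher was 0 after thinning and with at least 100 UMIs per gene, and 0 to 1 leaving out each number. The count lower there was 0 after thinning, 1 with at least 100 UMIs and at 2-fold, and 4 without NK-like and other-type cells. In Foxp3 cells the count higher was 1 at 2-fold, and in Pdcd1 cells the count lower was 0 without NK-like and other-type cells. Beyond the settings themselves, the causes were not tested. No paired analysis was possible because all cells come from 1 pooled library. Counts under about 20 UMIs limit Eomes, Zfp683 and Bach2 in the Tdp, cycling and Foxp3 cells.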
